A study of Mus musculus with 36 samples.

Results

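The SIBLING genes (small integrin-binding ligand, N-linked glycoproteins) are 5 genes of bone and tooth matrix, Spp1, Ibsp, Dmp1, Mepe and Dspp. They were taken by name from the 24411 genes of each RNA-seq library, and the open chromatin of their shared locus on mouse chromosome 5 was taken from the ATAC-seq peak lists. The study compared cultured mesenchymal stem cells (MSCs) of wild-type C57BL6/J mice at 8 weeks of age from 4 tissues: femoral bone marrow (fBM-MSCs), vertebral bone marrow (vBM-MSCs), adipose tissue (A-MSCs) and lung (P-MSCs). RNA-seq libraries of 3 fBM-MSC, 2 vBM-MSC, 3 A-MSC and 3 P-MSC cultures were analysed, and the ATAC-seq data comprised 1 pooled peak list per tissue. All cultures grew in the same medium, and the sources used here name no osteogenic agent. The bone marrow cells were released by crushing bone, whereas fat and lung were digested with collagenase, so tissue and way of isolation cannot be told apart. The cells were expanded as mixed adherent cultures of at most 3 passages and were not cloned, and in such bulk samples a larger share of producing cells and more RNA per cell cannot be told apart. The tissues of the study came from the same 3 mice, but no source says which libraries are of the same mouse, so p-values measure the spread between libraries taken as independent.

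SIBLING proteins are secreted, acidic phosphoproteins that carry an RGD integrin-binding motif and bind the calcium of hydroxyapatite. Osteopontin, encoded by Spp1, is made by osteoblasts but also by macrophages, kidney and other tissues, and restrains crystal growth. Bone sialoprotein, encoded by Ibsp, marks cells that lay down mineralizing matrix, dentin matrix protein 1 (Dmp1) is made mainly by osteocytes and late osteoblasts, matrix extracellular phosphoglycoprotein (Mepe) is an osteocyte product that restrains mineralization, and dentin sialophosphoprotein (Dspp) is made above all by the odontoblasts of teeth.

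In the mouse genome build GRCm38 (mm10), the 5 genes lay side by side on the plus strand of chromosome 5, within 270.4 kb. Their order was Dspp (104170703 to 104180127, 5 exons), Dmp1 (104197575 to 104214102, 6 exons), Ibsp (104299287 to 104311472, 7 exons), Mepe (104325329 to 104338611, 3 exons) and Spp1 (104435111 to 104441053, 6 to 8 exons). The widest gaps were the 85.2 kb between Dmp1 and Ibsp and the 96.5 kb between Mepe and Spp1. Dmp1 and Spp1 each had 2 annotated start sites.

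The promoters of the 4 genes with a RefSeq promoter entry are shown because the results below turn on where the chromatin at these start sites was open. Each runs from 250 bases before the start site to 50 after it, from RefSeq on GRCm38.p6, plus strand, 5′ to 3′. Capitals mark matches on either strand to TGTGGT or TGCGGT (RUNX), TGANTCA (AP-1), CCAAT (the CCAAT box), TATAAA (the TATA box) and TGACGT (the core of the cAMP response element, CRE).
Dmp1 promoter, second start site, chr5:104202367-104202666: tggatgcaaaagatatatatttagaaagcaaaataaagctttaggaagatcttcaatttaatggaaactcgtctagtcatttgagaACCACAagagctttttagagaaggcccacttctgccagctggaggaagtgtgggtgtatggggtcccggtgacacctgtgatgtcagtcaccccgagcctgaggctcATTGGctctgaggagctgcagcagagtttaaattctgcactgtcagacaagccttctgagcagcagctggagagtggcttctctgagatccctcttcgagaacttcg
Ibsp promoter, chr5:104299037-104299336: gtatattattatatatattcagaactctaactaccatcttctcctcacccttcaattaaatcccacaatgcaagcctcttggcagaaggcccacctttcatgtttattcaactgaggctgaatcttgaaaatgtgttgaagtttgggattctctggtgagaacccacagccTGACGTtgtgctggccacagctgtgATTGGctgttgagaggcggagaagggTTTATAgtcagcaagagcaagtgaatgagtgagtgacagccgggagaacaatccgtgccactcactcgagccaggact
Mepe promoter, chr5:104325079-104325378: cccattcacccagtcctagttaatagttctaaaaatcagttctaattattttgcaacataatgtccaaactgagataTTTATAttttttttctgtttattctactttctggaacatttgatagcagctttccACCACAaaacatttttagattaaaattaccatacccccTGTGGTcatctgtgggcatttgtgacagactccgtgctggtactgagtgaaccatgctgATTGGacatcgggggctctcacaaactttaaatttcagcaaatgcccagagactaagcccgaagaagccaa
Spp1 promoter, first start site, chr5:104434861-104435160: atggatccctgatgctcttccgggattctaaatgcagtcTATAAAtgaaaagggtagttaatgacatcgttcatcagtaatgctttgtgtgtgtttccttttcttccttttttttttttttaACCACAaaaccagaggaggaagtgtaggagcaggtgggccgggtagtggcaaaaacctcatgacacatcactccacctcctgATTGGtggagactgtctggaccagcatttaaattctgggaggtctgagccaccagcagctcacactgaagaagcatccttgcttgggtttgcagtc

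The 4 promoters printed shared an inverted CCAAT box, read as ATTGG, close to the start site. Counting the start site as position 0, it began at position -57 in Dmp1, at -54 in Ibsp, at -21 in Mepe and at -46 in Spp1. At the start sites not printed, the first of Dmp1 had it at -101 with no RUNX match, and the second of Spp1 had no match to any of the 5 motifs. A CCAAT box on either strand was in 37.4% of the 32851 RefSeq promoters of this length, and ATTGG within the 60 bases before the start site, a window chosen after seeing the matches, was in 5.91%. The RUNX letters, the site of the osteoblast factor RUNX2, were present in Dmp1 (ACCACA at -164), Mepe (ACCACA at -118 and TGTGGT at -80) and Spp1 (ACCACA at -128), against 22.4% of all promoters. No RUNX match lay in the Ibsp window, which held a CRE core at -79 (in 7.51% of promoters) and an inverted TATA box, TTTATA, at -28 (in 13.6%). The AP-1 letters were in none of these 4 windows, against 7.81% of promoters. A match to such short letters is a description of the sequence and not a bound site.

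Spp1 was the SIBLING transcript with the highest level in every library. Levels are given in TPM, transcript abundances scaled for gene length and to the same total in each library, which can be compared between genes. Spp1 was at 26353, 38360 and 84015 TPM in the fBM-MSCs, at 1562 and 9037 TPM in the vBM-MSCs, at 384, 353 and 352 TPM in the A-MSCs and at 284, 160 and 220 TPM in the P-MSCs, replicates in order. No tissue overlapped with another, in the order fBM-MSC, vBM-MSC, A-MSC and P-MSC. As a background for this split and those of Ibsp and Dmp1, the 12509 genes tested below were counted in the same way. All fBM-MSC libraries were above all vBM-MSC libraries for 15.4% of them, and all bone marrow libraries above all others for 10.4%. By TPM, Spp1 ranked 3rd, 1st and 1st among all genes of the fBM-MSC libraries, 99th and 8th in the vBM-MSCs, 455th to 479th in the A-MSCs and 581st to 975th in the P-MSCs. The 5 genes together held 2.66%, 3.87% and 8.52% of all TPM in the fBM-MSCs, of which Spp1 made up 98.6% to 99.0%, and 0.0161% to 0.0384% in the non-bone marrow libraries.

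Ibsp was a bone marrow transcript with nearly no reads elsewhere. It was at 218, 286 and 1010 TPM in the fBM-MSCs and at 16.9 and 321 TPM in the vBM-MSCs. In the A-MSCs it had 3 expected counts in replicate 1 and 0 in the other libraries, and in the P-MSCs 1 count in replicate 1 and 0 in the others. The bone marrow libraries therefore stood apart from all others, while fBM-MSCs and vBM-MSCs overlapped, since vBM-MSC replicate 2 was above fBM-MSC replicates 1 and 2.

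Dmp1 followed the same split at a lower level. It was at 40.4, 96.7 and 159 TPM in the fBM-MSCs and at 0.80 TPM (41 counts) and 17.2 TPM (1061 counts) in the vBM-MSCs. In the A-MSCs it had 1 count in replicate 1 and 0 in the others, and in the P-MSCs 1, 11 and 0 counts, the 11 counts being 0.20 TPM. The fBM-MSC libraries were all above the vBM-MSC libraries, and these above the rest, although the lowest vBM-MSC library was only 4.0 times the highest P-MSC library.

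Mepe and Dspp were at the limit of detection. Mepe had 0, 14 and 6 counts in the fBM-MSCs, which is 0, 0.44 and 0.16 TPM, and 0 counts in the 8 libraries of the other tissues. With a floor of 3 counts for those 8 libraries together, the ratio of pooled, library-scaled counts in fBM-MSCs to theirs was 21.4. It was 10.2 without fBM-MSC replicate 2, which held 14 of the 20 counts. These ratios allow for no spread between libraries and would be lower with a floor of 3 counts in each library. They are therefore not lower bounds, and fBM-MSC replicate 1 had 0 counts, like the libraries of the other tissues. Dspp, the dentin gene, had 4 counts in fBM-MSC replicate 2, 10 counts in P-MSC replicate 2 and 0 in the other libraries, so that no tissue could be told from another at this depth. Neither gene passed the filter for testing (a library-scaled count, CPM, of 1 or more in 2 or more libraries), with highest CPM values of 0.44 and 0.32.

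**Figure D1:**
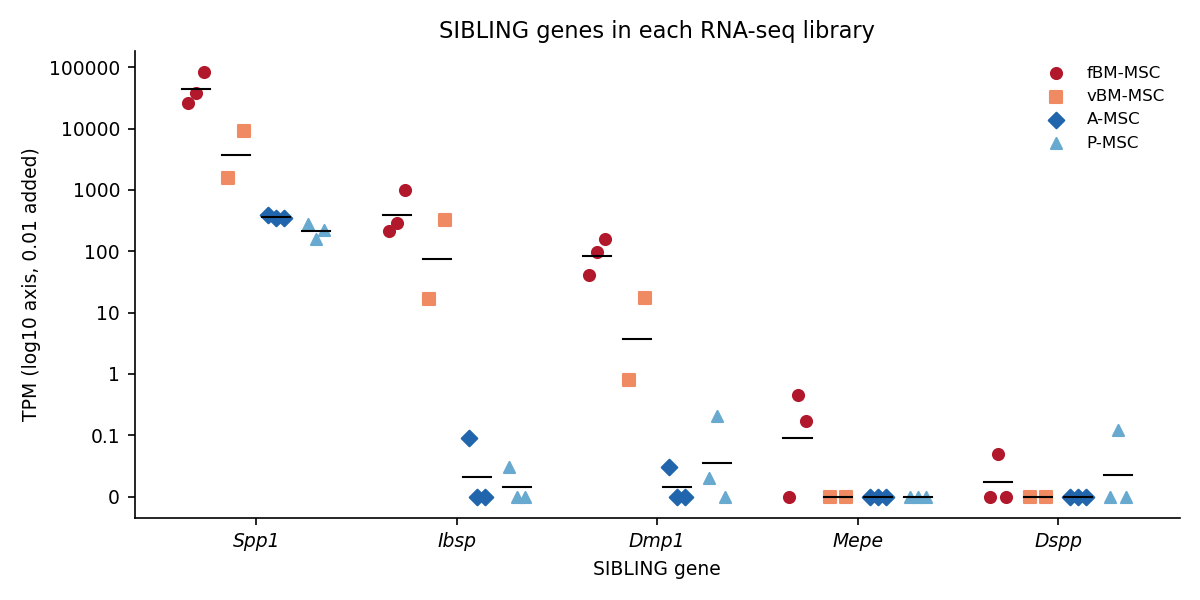
TPM of the 5 SIBLING genes (log10 axis, 0.01 added so that 0 can be drawn) in each of the 11 RNA-seq libraries, by tissue, with bars at the mean of the log10 values. Spp1 is present in every library, Ibsp and Dmp1 rise above 0.5 TPM in bone marrow libraries only, and Mepe and Dspp stay under 0.5 TPM.

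The depth of the libraries was 19569650 to 40517739 expected counts, with a median of 34414200. One edgeR model was fitted to all genes and libraries, and its quasi-likelihood test with Benjamini-Hochberg adjustment was applied to 12509 genes, of which 3 were SIBLING genes. In bone marrow against non-bone marrow MSCs, 3 of these 3 were higher, where 24.8% of all tested genes were higher, 22.4% were lower and 47.2% passed in either direction. Ibsp and Dmp1 reached the filter through bone marrow libraries alone, so the test could only find them higher there, and the count of 3 supports nothing beyond their levels. Spp1 averaged 49576 ± 30423 TPM (SD, n = 3) in fBM-MSCs and 5300 ± 5286 TPM (n = 2) in vBM-MSCs, while A-MSCs averaged 363 ± 18.3 TPM and P-MSCs 221 ± 61.5 TPM (n = 3 each). It was 55.8-fold higher in bone marrow MSCs (log2 fold change 5.80, SE 0.45, edgeR adjusted p = 1.84e-06), with a log2 fold change of 5.01 without vBM-MSC replicate 2. Ibsp (edgeR adjusted p = 2.68e-06) and Dmp1 (1.01e-05) were higher as well, and since the non-bone marrow libraries held 4 and 13 counts of them in all, their fold is given as a ratio of pooled counts per effective library size. This ratio was 26380 for Ibsp (exact 95% interval 10300 to 96830) and 1995 for Dmp1 (1166 to 3747), intervals that cover counting error only. Single libraries decide these ratios: without A-MSC replicate 1, which held 3 of the 4 counts, that of Ibsp was 91170, without P-MSC replicate 2, which held 11 of the 13, that of Dmp1 was 10940, and without fBM-MSC replicate 3 they were 13790 and 1125. The 4 tissues together differed for the same 3 genes, with adjusted p-values of 3.32e-06 for Spp1, 1.29e-05 for Ibsp and 1.88e-05 for Dmp1, where 60.6% of all genes passed.

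The tissue pairs of the same model share libraries and are given side by side. Spp1 rose in fBM-MSCs against A-MSCs by 7.02 on the log2 scale (SE 0.66, edgeR adjusted p = 1.63e-05) and against P-MSCs by 7.93 (SE 0.69, 5.01e-06), and in vBM-MSCs by 3.68 (SE 0.59, 0.00123) and 4.59 (SE 0.61, 0.000162). Without fBM-MSC replicate 3 the first 2 values were 6.39 and 7.30, and the last 2 were 2.09 and 3.003 without vBM-MSC replicate 2 and 4.42 and 5.33 without vBM-MSC replicate 1. Ibsp and Dmp1 also passed in each of these 4 comparisons, with edgeR adjusted p-values between 2.29e-05 and 0.00170. Having reached the filter through bone marrow libraries alone, they could only be found higher there. In these comparisons 20.6%, 24.7%, 13.2% and 21.0% of all tested genes were higher and 40.9%, 47.7%, 25.6% and 38.7% passed in either direction. Between A-MSCs and P-MSCs none of the 3 genes passed the edgeR test, by which 30.9% of all genes did (16.0% higher in A-MSCs), none was under an unadjusted p of 0.05, and DESeq2 called 0 of them. There Spp1 was 1.88-fold apart (log2 fold change 0.91, SE 0.51, adjusted p = 0.202), although each A-MSC library was above each P-MSC library, and a model of these tissues alone gave an adjusted p of 0.000631.

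Within bone marrow, the femur was above the vertebrae for Spp1 and Dmp1. Against vBM-MSCs, Spp1 was 10.1-fold higher in fBM-MSCs (log2 fold change 3.34, SE 0.66, edgeR adjusted p = 0.00835) and Dmp1 11.8-fold (3.56, SE 0.95, 0.0315), where 5.24% of all genes were higher and 12.8% passed in either direction. Ibsp was at 505 ± 439 TPM (n = 3) and 169 ± 215 TPM (n = 2), and its log2 fold change was 1.71 (SE 0.90, edgeR adjusted p = 0.244). These values rest on 2 vBM-MSC libraries that were far apart. Without vBM-MSC replicate 2, the log2 fold changes were 4.93 for Spp1 (edgeR adjusted p = 0.00133), 6.89 for Dmp1 (0.00169) and 4.84 for Ibsp (0.00709), and without vBM-MSC replicate 1 they were 2.60 (0.0337), 2.65 (0.0708) and 0.80 (0.572). The call of Dmp1 was also lost without fBM-MSC replicate 2 (0.0590), fBM-MSC replicate 3 (0.0542) or A-MSC replicate 1 (0.0602) and by the DESeq2 Wald test (0.138), and the calls of both genes were lost in a model of these tissues alone.

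Within bone marrow tissues the libraries differed widely in Spp1, Ibsp and Dmp1. The coefficient of variation of the Spp1 level was 61.4% for the fBM-MSCs and 99.7% for the vBM-MSCs, while that of A-MSCs was 5.03% and that of P-MSCs 27.8%. Over all tissues, the biological coefficient of variation in the model was 42.9% for Spp1, 78.5% for Ibsp and 88.1% for Dmp1, against a median of 19.8% over all tested genes. The TPM in vBM-MSC replicate 2 was 5.79 times that in replicate 1 for Spp1, 18.96 times for Ibsp and 21.5 times for Dmp1. Within fBM-MSCs the highest library was 3.19, 4.62 and 3.94 times the lowest. Over the 5 bone marrow libraries Spp1 and Dmp1 ranked the libraries alike, from fBM-MSC replicate 3 down to vBM-MSC replicate 1, and Ibsp differed only in placing vBM-MSC replicate 2 in the second rank. The balance of the genes also differed: the TPM of Ibsp was 5.41, 2.96 and 6.35 times that of Dmp1 in the fBM-MSCs and 21.2 and 18.7 times in the vBM-MSCs, ranges that did not overlap. Spp1 was 83.2 to 134 times Ibsp in the fBM-MSCs, against 92.3 and 28.2 times in the vBM-MSCs.

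**Figure D2:**
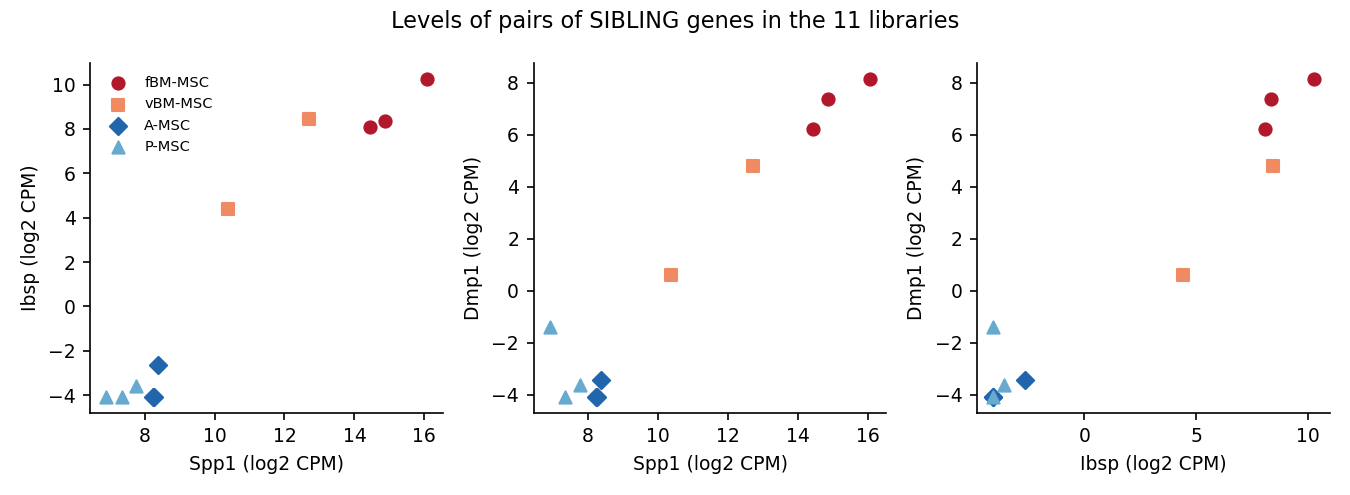
Normalised log2 CPM of Spp1, Ibsp and Dmp1 plotted in pairs, each point being 1 of the 11 libraries, by tissue. The non-bone marrow libraries form a separate cluster at the floor of Ibsp and Dmp1, vBM-MSC replicate 1 lies between them and the other bone marrow libraries, and fBM-MSC replicate 3 is highest for all 3 genes.

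The genes whose log2 CPM was most like that of Spp1 over the 11 libraries were Bglap (osteocalcin, Pearson r 0.992), Epdr1 (0.990), Calcoco1 (0.990), Abhd12 (0.987), Ppt1, Atp6ap1, Arhgef6, Adssl1, Lifr (the receptor of leukaemia inhibitory factor) and Gpc1 (glypican 1, 0.982). Bglap, a hormone-like matrix protein of osteoblasts, was at 155, 302 and 1065 TPM in the fBM-MSCs and at 4.10 and 73.7 TPM in the vBM-MSCs. The genes most like Ibsp included Zfp316 (0.995), Tnn (tenascin N, 0.993), Slitrk6 (0.992), Stac, Tmie, Itga10 (an integrin chain that binds collagen), Slc29a1, Ctsk (cathepsin K) and Fuca1 (0.981). These libraries lie in separate clusters by tissue, so such values mainly describe the step between tissues. By deviations from the tissue means, the genes most like Spp1 were Gfm1 (0.987), Loxl3 (a lysyl oxidase that crosslinks collagen, 0.984), Gpc1, Mmp13 and Klhl32, and those most like Ibsp were Slfn5 (0.988), Zfp28, Mxi1, Ccnl1 and Prl2c2, of a family with near-identical copies. All these genes were picked as the highest among 12509 tested genes over 11 libraries, and such picking alone can give high values. Klhl32 and Slfn5 were near the floor, with tissue means of at most 0.63 and 0.26 TPM.

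Many genes of the same matrix were higher in bone marrow MSCs. Of 14 other bone matrix and mineralization genes, 13 were tested, all of these 13 were higher in bone marrow MSCs by the edgeR test and none was lower, against 24.8% and 22.4% of all tested genes. Of the 13, Alpl, Bglap, Bglap2, Phospho1 and Pth1r reached the filter through bone marrow libraries alone and could only be found higher there, while the other 8 passed it in the non-bone marrow libraries too and had a median log2 fold change of 3.52, against -0.01 for the 11761 genes of which this held. Between single tissues 4 of the 13 did not pass throughout. Sparc (osteonectin) did not pass against A-MSCs in fBM-MSCs (log2 fold change 0.15, edgeR adjusted p = 0.493) or vBM-MSCs (0.08, 0.776), and the collagen gene Col1a1 did not in fBM-MSCs (0.83, 0.0580). In vBM-MSCs, Col1a1 (edgeR adjusted p = 0.737 and 0.121), Col1a2 (0.236 and 0.120) and Phospho1 (0.252 and 0.265) passed against neither A-MSCs nor P-MSCs. Alkaline phosphatase (Alpl), which frees phosphate for mineral, had means of 78.8 ± 81.9 TPM (fBM-MSCs) and 44.2 ± 46.2 TPM (vBM-MSCs), against 0.32 ± 0.28 TPM for A-MSCs and 0 for P-MSCs (edgeR adjusted p = 4.96e-05). Bglap (adjusted p = 0.000105) and its near-identical copy Bglap2 (0.000208), between which reads may be split, had means of 507 and 796 TPM in fBM-MSCs and 38.9 and 58.1 TPM in vBM-MSCs. Fibromodulin (Fmod), a collagen-binding proteoglycan, had means of 223, 170, 6.37 and 0.67 TPM in fBM-, vBM-, A- and P-MSCs (edgeR adjusted p = 3.30e-06). In TPM, 13 of these 13 genes were higher in vBM-MSC replicate 2 than in replicate 1, where 67.4% of all tested genes were. For 9 of the 13 all bone marrow libraries were above all others, against 10.4% of all tested genes, but 4 of the 9 had reached the filter through bone marrow alone. Among the 8 other genes this held for 5, against 9.42% of the 11761.

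Of 12 osteoblast transcription factors, 7 were higher, 5 did not pass and none was lower, against 24.8% higher and 22.4% lower among all tested genes. Without fBM-MSC replicate 3, 1 was lower. Sp7, Dlx5 and Dlx6 reached the filter through bone marrow libraries alone, and of the other 9 factors 4 were higher, with a median log2 fold change of 0.84 over the 9. Osterix (Sp7), needed for osteoblasts to form, was at 10.1, 23.7 and 64.3 TPM in the fBM-MSCs, at 2.62 and 9.71 TPM in the vBM-MSCs and at most 0.16 TPM elsewhere (edgeR adjusted p = 1.54e-05). Dlx5 was at 9.09, 17.8 and 44.3 TPM in the fBM-MSCs, at 0.27 and 5.97 TPM in the vBM-MSCs and at most 0.16 TPM elsewhere (edgeR adjusted p = 0.000196). The distal-less factors Dlx6 (adjusted p = 0.0161; 0 counts outside bone marrow) and Dlx3 (0.000224) were higher as well. Between tissues, Dlx6 did not pass in vBM-MSCs against A-MSCs (edgeR adjusted p = 0.281) or P-MSCs (0.222), and Dlx3 averaged 0.78 TPM in both vBM-MSCs and A-MSCs (log2 fold change -0.17, edgeR adjusted p = 0.902). All bone marrow libraries were above all others for 2 of the 12 factors, against 10.4% of all tested genes, and for 0 of the 9 that passed the filter outside bone marrow too. In TPM, 12 of the 12 were higher in vBM-MSC replicate 2 than in replicate 1, where 67.4% of all tested genes were. Of 7 osteocyte genes, 5 were tested and 3 were higher, where 24.8% of all genes were: osteocrin (Ostn, adjusted p = 0.0141), Irx5 (0.00189) and the actin-capping Capg (0.000285). Ostn and Irx5 reached the filter through bone marrow libraries alone. In vBM-MSCs alone, Capg did not pass against A-MSCs (log2 fold change 0.01, edgeR adjusted p = 0.979) or P-MSCs (0.38, 0.114), Ostn passed against neither (0.317 and 0.256), and Irx5 did not pass against P-MSCs (0.126). The osteocyte products Sost and Fgf23 had means of at most 1.34 and 0.01 TPM in any tissue and were not tested.

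The genes of enzymes that phosphorylate, cut or crosslink SIBLING proteins went in both directions. Of 14 such genes 10 were tested, and bone marrow MSCs had 5 of them higher and 2 lower, where 24.8% and 22.4% of all tested genes were, so the count of lower genes was near that of all genes. The collagenase gene Mmp13 was at 39.1, 42.9 and 139 TPM in the fBM-MSCs, 46.5 and 336 TPM in the vBM-MSCs, 1.05 to 1.08 TPM in the A-MSCs and 11.4 to 13.6 TPM in the P-MSCs (log2 fold change 4.99, SE 0.50, edgeR adjusted p = 1.20e-05). Mmp3 (3.08, SE 0.80, 0.00772), the gelatinase Mmp2 (2.70, SE 0.24, 4.55e-06) and Fam20a, the partner of the secretory kinase Fam20c (2.72, SE 0.27, 1.32e-05), were also higher by the edgeR test. Mmp3 was at 4.59 to 11.9 TPM in the fBM-MSCs and at 1.87 and 68.3 TPM in the vBM-MSCs, replicates in order. It was at 0.26 to 4.44 TPM in the A-MSCs and 0.81 to 2.48 TPM in the P-MSCs. Mmp3 did not pass in fBM-MSCs against A-MSCs (edgeR adjusted p = 0.199) or P-MSCs (0.102), nor Fam20a in vBM-MSCs against A-MSCs (0.0563). Transglutaminase 2 (Tgm2), which crosslinks osteopontin, was at 11.2 to 13.8 TPM in the fBM-MSCs, 45.4 and 85.0 TPM in the vBM-MSCs and 231 to 332 TPM in the other libraries (log2 fold change -3.32, SE 0.19, edgeR adjusted p = 2.41e-07). Tll1, a protease of the Bmp1 family that cuts Dmp1 and Dspp, was also lower (-2.87, SE 0.22, 1.92e-06).

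Among the receptors of SIBLING proteins, 9 of 11 integrin chains and Cd44 were tested, 3 were higher and 2 lower, near the 24.8% and 22.4% of all tested genes, with a median log2 fold change of 0.42. Without vBM-MSC replicate 2, 5 were higher, as they were by DESeq2. Itgb3, the beta chain of the integrin that binds osteopontin best known in osteoclasts, was at 7.97 to 13.5 TPM in the fBM-MSCs, 8.25 and 10.1 TPM in the vBM-MSCs, 1.83 to 3.34 TPM in the A-MSCs and 0.19 to 0.86 TPM in the P-MSCs (log2 fold change 3.19, SE 0.36, edgeR adjusted p = 2.71e-05). Itgb5 (1.61, SE 0.09, 2.23e-07) and Itgb1 (0.39, SE 0.10, 0.00884) were higher, and Itga9 (-1.66, SE 0.36, 0.00284) and the fibronectin receptor chain Itga5 (-1.31, SE 0.19, 0.000163) were lower by the same test. For Itgb1 the difference was from A-MSCs: against P-MSCs the log2 fold change was 0.03 in fBM-MSCs and 0.05 in vBM-MSCs (edgeR adjusted p = 0.872 and 0.820). In vBM-MSCs, Itga5 did not pass against A-MSCs (-0.80, edgeR adjusted p = 0.0542) or P-MSCs (0.02, 0.965), nor Itga9 against P-MSCs (-0.42, 0.554). Itgav, the alpha partner of Itgb3, had means of 26.8 to 34.04 TPM in the tissues (log2 fold change -0.24, SE 0.13, adjusted p = 0.157).

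**Figure D3:**
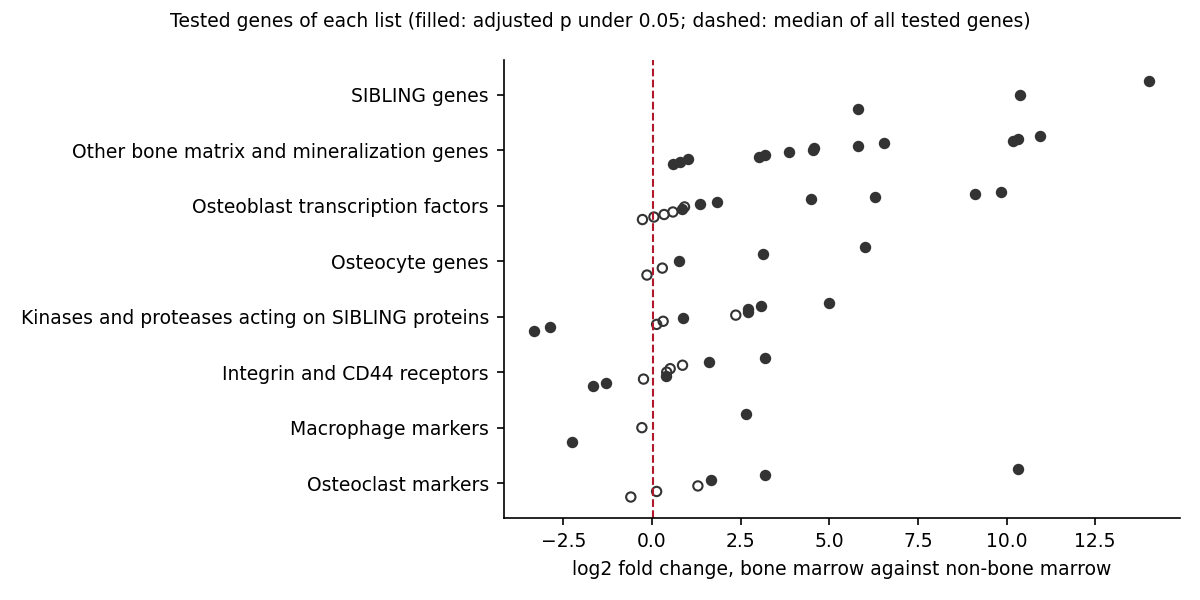
Fitted log2 fold change in bone marrow against non-bone marrow MSCs for the tested genes of each list, filled where the edgeR adjusted p is under 0.05, with the median of all tested genes (0.03) dashed. The 3 SIBLING genes and the 13 other bone matrix genes lie on the bone marrow side, and the receptor and enzyme lists lie on both sides.

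The labelled cell type was checked against its surface markers. Itgb1, Cd44, Ly6a and Vcam1 were detected in every library, with summed levels of 983 to 2336 TPM, and Pecam1 and Ptprc, markers that MSCs lack, had means of at most 1.49 and 0.27 TPM. Cd34, which should be absent, was at 79.2, 72.7 and 10.2 TPM in the fBM-MSCs, replicates in order, at 7.33 and 7.46 TPM in the vBM-MSCs and at 0.91 to 5.15 TPM elsewhere. Macrophages and osteoclasts also make osteopontin. Of 12 macrophage markers, Adgre1, C1qa, C1qb, C1qc, Itgam and Tyrobp had 0 counts in every fBM-MSC library, and the summed level, carried by Lyz2 and Cd68, was 36.4 to 49.7 TPM for fBM-MSCs and 22.1 to 42.9 TPM for vBM-MSCs, against 16.8 to 25.4 TPM for A-MSCs and 10.3 to 12.4 TPM for P-MSCs. Of the 3 macrophage markers tested, Lyz2 was higher in bone marrow MSCs (log2 fold change 2.65, edgeR adjusted p = 9.31e-06), the receptor gene Csf1r was lower (-2.24, 1.75e-05) and Cd68 did not pass (-0.28, 0.462). Cd68 was higher in fBM-MSCs and lower in vBM-MSCs, with means of 14.6 and 1.80 TPM, than in A-MSCs and P-MSCs, with means of 5.0 and 6.18 TPM (edgeR adjusted p = 0.0195, 0.0294, 0.0211 and 0.00888). Of 9 osteoclast markers, Dcstamp had 0 counts in every library and Calcr and Acp5 had means under 2 TPM, while 3 of 6 tested, Ctsk, Atp6v0d2 and Itgb3, were higher in bone marrow MSCs by the edgeR test (24.8% of all genes). Atp6v0d2 reached the filter through bone marrow libraries alone. It was also higher in fBM-MSCs, at 15.0 to 23.0 TPM, than in vBM-MSCs, at 0.11 and 0.83 TPM (log2 fold change 5.43, SE 0.71, edgeR adjusted p = 0.00355), as was the gelatinase gene Mmp9, at 5.51 to 8.87 TPM against at most 0.05 TPM (adjusted p = 0.0405). Both fell short of the filter without the fBM-MSC libraries, so this comparison could only find them higher there. The other 4 tested did not pass, with log2 fold changes of -0.76 (Acp5), -0.66 (Oscar), 0.25 (Ctsk) and 0.28 (Itgb3). Of all tested genes, 5.24% were higher in fBM- than in vBM-MSCs. The summed level was 220 to 334 TPM for fBM-MSCs, 149 to 267 TPM for vBM-MSCs and 60.8 to 76.1 TPM elsewhere, most of it Ctsk, a protease gene that was at 139.7 to 300.7 TPM in bone marrow and 58.4 to 70.0 TPM elsewhere. These sums moved with the SIBLING levels between bone marrow and the other tissues. Atp6v0d2 and Mmp9 were, like Spp1, higher in fBM- than in vBM-MSCs. Within fBM-MSCs, replicate 3, the highest for Spp1, was the lowest for Atp6v0d2 (15.0 TPM) and the highest for Mmp9 (8.87 TPM). The part of macrophages and osteoclasts in the SIBLING levels was not tested. Summed erythroid markers were at most 0.78 TPM in any library, and 3 of 4 tested endothelial and 3 of 3 tested epithelial markers were lower in bone marrow MSCs, where 22.4% of all tested genes were. Of these 7 markers, 5 reached the filter through non-bone marrow libraries alone.

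ATAC-seq marks open chromatin by the insertion of adaptors with Tn5 transposase, and each peak list gives regions with their summits, the fold enrichment of a summit over the genome-wide background and its −log10 q. There was 1 list per tissue from pooled samples, so differences between lists have no replicate check. Around the cluster, from 50 kb before Dspp to 50 kb after Spp1, the fBM-MSC list held 25 regions at a −log10 q of at least 7, against 15, 16 and 17 in the lists of vBM-, A- and P-MSCs. Genome-wide the lists were of like size, with 56769, 50763, 59873 and 55648 regions. Merged by at least 1 base of overlap, the window held 32 regions, of which 7 (21.9%) passed the threshold in all 4 lists and 9 (28.1%) in the fBM-MSC list alone, against 2, 2 and 1 in the vBM-MSC, A-MSC and P-MSC lists alone. Of all 89849 merged regions of chromosomes 1 to 19, 32.0% passed in all lists and 11.4% in the fBM-MSC list alone. Of the 9, 5 had a region under the threshold in another list and 4 had none.

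Spp1 and Ibsp had open chromatin at their start sites in fBM-MSCs. At Spp1, the fBM-MSC region 104434939 to 104435501 had its summit at 2 bases after the first start site, in exon sequence, with a fold enrichment of 6.25 and a −log10 q of 9.03. The P-MSC list had a summit 25 bases after the same start site at a fold enrichment of 4.78, under the threshold with a −log10 q of 5.41, and the vBM-MSC and A-MSC lists had none within 1 kb. At Ibsp only the fBM-MSC list had a region, 104299083 to 104299399, with its summit at position -63 (fold enrichment 5.52, −log10 q 7.14), between the CRE core and the inverted CCAAT box printed above. Counting a summit within 1 kb of a start site at the threshold, 2 of the 5 genes (Spp1 and Ibsp) were open in the fBM-MSC list, 1 (Dmp1) in that of vBM-MSCs and 0 in those of A-MSCs and P-MSCs, where 50.7%, 51.6%, 52.7% and 51.8% of all 24921 genes on chromosomes 1 to 19 were. The pattern of Spp1 and Ibsp, at the threshold in the fBM-MSC list and no other, was found in 0.895% of genes. Mepe and Dspp had no summit within 1 kb in any list.

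Dmp1 had its open region within the gene, upstream of the second start site. The fBM-MSC summit lay at position -1066 and the vBM-MSC summit at -973 from that site, both in intron sequence of the longer transcript and on either side of the 1 kb limit, with fold enrichments of 6.99 and 5.52. Neither A-MSCs nor P-MSCs had a region there. A second intronic region, 104210876 to 104211228, was in all 4 lists as deposited, at fold enrichments of 6.99 (fBM-MSCs), 4.78 (vBM-MSCs), 5.89 (A-MSCs) and 4.78 (P-MSCs), of which those of fBM-MSCs and A-MSCs passed the threshold.

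Over the body of Spp1 the fBM-MSC list was crowded and the others were nearly empty. As deposited, without the threshold, 8 fBM-MSC regions with 9 summits touched the gene, at fold enrichments of 2.94 to 6.25, against 1 in P-MSCs and 0 in vBM-MSCs and A-MSCs. They covered 58.3% of the 5943 bases of the gene, 70.6% of its exonic and 53.6% of its intronic bases. The part past the threshold was the start site and the 928 bases from 104439886 to 104440813 near the 3′ end. Of all genes, 7.66% had at least as many fBM-MSC regions. Only Spp1 and the much longer D130009I18Rik (327640 bases) and Lrp1b (2056826 bases) did so with none in vBM-MSCs and A-MSCs, which is 0.012%. This rule was set after the counts of Spp1 itself and left out P-MSCs, which had 1 region there. The share is therefore a description and not a test.

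**Figure D4:**
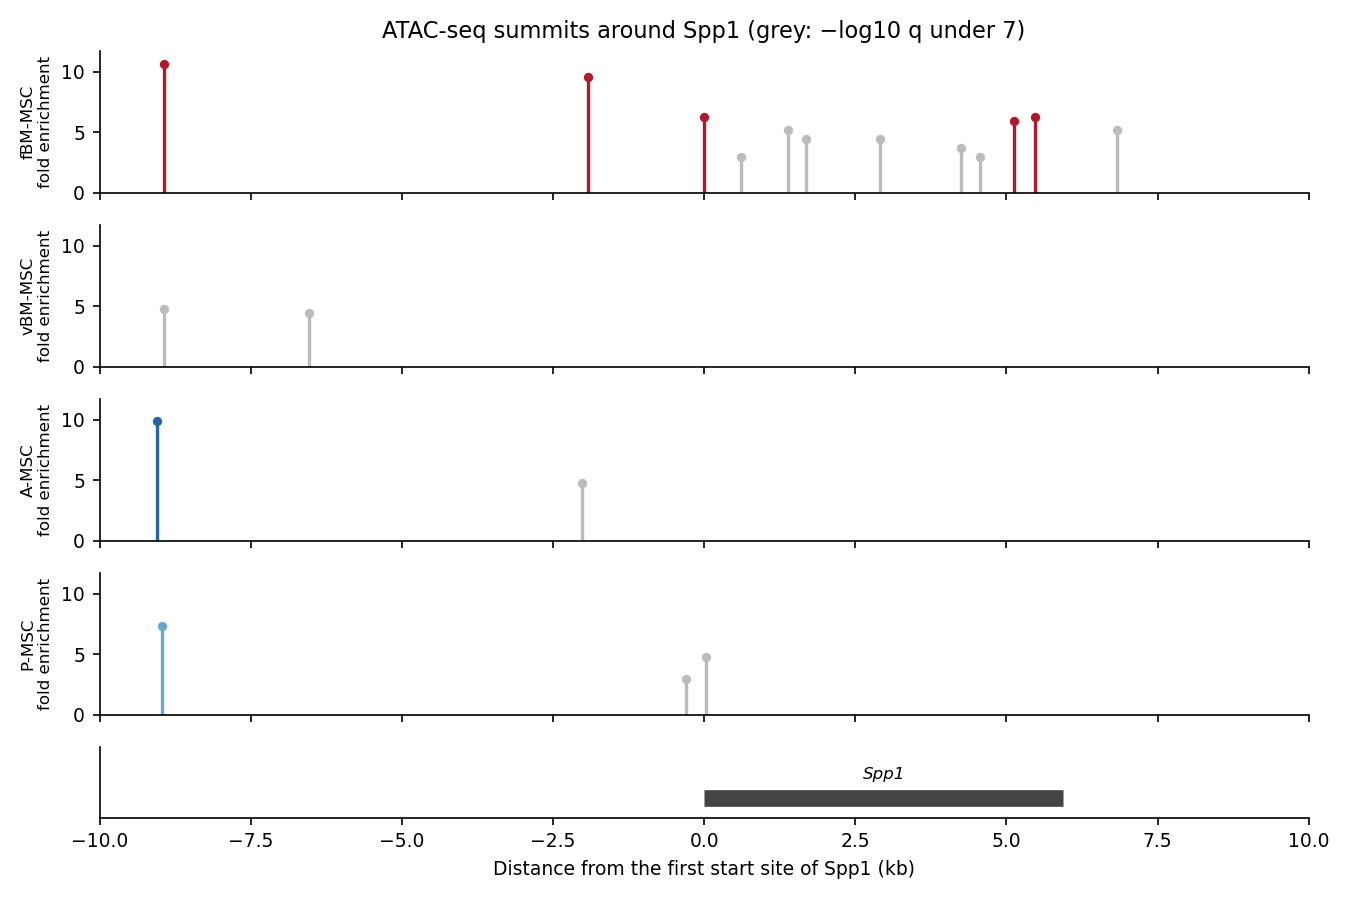
Fold enrichment of each ATAC-seq summit by its distance from the first start site of Spp1 (kb), 1 panel per tissue list, coloured at a −log10 q of at least 7 and grey under it. The fBM-MSC list has 9 summits along the gene, 3 of them past the threshold, and in the other lists no summit within the gene passes it.

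Outside the genes, regions that were open in every tissue lay beside regions that were open in fBM-MSCs. The strongest region of the window, 104251666 to 104252513 between Dmp1 and Ibsp, passed the threshold in all lists, at fold enrichments of 23.9 (fBM-MSCs), 24.65 (vBM-MSCs), 37.5 (A-MSCs) and 31.3 (P-MSCs), so that it was highest in the tissues where the neighbouring genes had nearly no reads. A pair of regions between Mepe and Spp1, 104374145 to 104374883 and 104380367 to 104381064, also passed in all lists, at fold enrichments of 11.8 to 24.65. Upstream of Spp1, the region 104433011 to 104433354 had a fold enrichment of 9.56 (−log10 q 18.7) in fBM-MSCs with its summit at position -1929, and 4.78 (5.46) in A-MSCs. The sequences within 100 bases of the fBM-MSC summits of the strongest region, of this upstream region and of the Dmp1 region are shown, from the GRCm38.p6 genome, plus strand, marked as above.
Dmp1 upstream region, chr5:104201451-104201651: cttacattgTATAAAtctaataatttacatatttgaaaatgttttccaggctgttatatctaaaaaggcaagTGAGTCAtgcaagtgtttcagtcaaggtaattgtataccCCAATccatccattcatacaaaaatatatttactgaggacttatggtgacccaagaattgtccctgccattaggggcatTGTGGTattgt
Region between Dmp1 and Ibsp, chr5:104251910-104252110: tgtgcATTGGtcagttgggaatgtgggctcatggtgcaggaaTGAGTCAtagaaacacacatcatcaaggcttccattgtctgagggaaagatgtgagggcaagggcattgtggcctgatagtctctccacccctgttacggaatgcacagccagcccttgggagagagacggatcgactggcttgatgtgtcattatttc
Spp1 upstream region, chr5:104433082-104433282: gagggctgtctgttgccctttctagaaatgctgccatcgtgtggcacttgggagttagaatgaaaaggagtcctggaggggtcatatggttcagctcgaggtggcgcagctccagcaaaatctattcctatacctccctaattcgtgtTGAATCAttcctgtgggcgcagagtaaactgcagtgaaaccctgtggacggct

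Each of these 3 windows held the AP-1 letters: TGAGTCA at position -28 from the summit in the Dmp1 region, TGAGTCA at -58 in the region shared by all lists and TGAATCA at 48 in the Spp1 region. AP-1 letters were in 34.2% of all fBM-MSC summit windows of this length at the threshold. The RUNX letters were in the Dmp1 window only (TGTGGT at 90), against 26.0% of all windows.

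**Figure D5:**
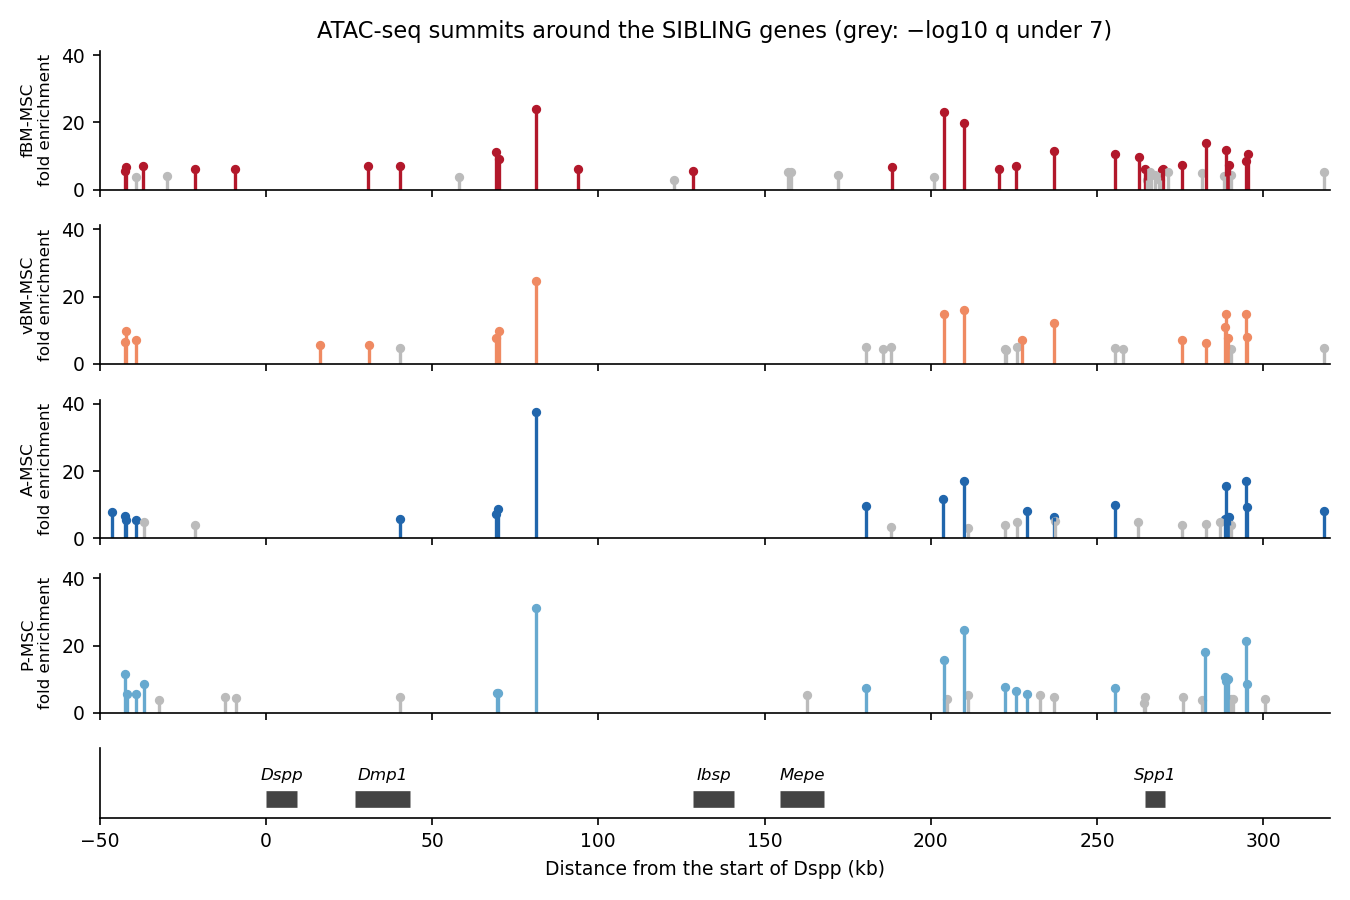
Fold enrichment of ATAC-seq summits over the SIBLING cluster by distance from the start of Dspp (kb), 1 panel per tissue list, coloured at a −log10 q of at least 7 and grey under it, with the genes drawn to scale beneath. The tallest summit, between Dmp1 and Ibsp, is in all lists, and the summits at the Ibsp and Spp1 start sites pass the threshold in the fBM-MSC list only.

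The genes next to the cluster did not share its pattern in full. Nudt9, an ADP-ribose hydrolase gene on the Dspp side, had means of 47.4, 33.98, 27.3 and 44.6 TPM in fBM-, vBM-, A- and P-MSCs (log2 fold change 0.19, SE 0.15, edgeR adjusted p = 0.319). Nudt9 was higher in fBM-MSCs than in A-MSCs (log2 fold change 0.72, SE 0.20, edgeR adjusted p = 0.0150) and passed in no other pair of tissues. Sparcl1 and Gm17660 were at most 0.40 TPM in any library. Pkd2 (polycystin 2, a cation channel), which starts after Spp1 at 104453982, had means of 14.7, 13.5, 4.66 and 6.04 TPM and was higher in bone marrow MSCs (log2 fold change 1.41, SE 0.18, edgeR adjusted p = 8.33e-05).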

How the data were processed

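For RNA-seq, the authors made Smart-seq2 libraries, which carry no strand information, and quantified paired reads with RSEM and STAR against mm10. The deposited expected count is RSEM's estimate per gene, is not normalized, and shares multi-mapping reads between genes. The authors' TPM and FPKM values were computed by RSEM and correct for effective length and for library size. FPKM and the deposited lengths were not tested. The authors' ATAC-seq reads were trimmed with Trim Galore, aligned with Bowtie, cleared of duplicates with Picard and shifted for the Tn5 offset, and MACS2 called peaks without a local background on the pooled samples of a tissue. The deposited lists hold the fold enrichment of a summit as a ratio, its −log10 q, and a score that repeats this and was not used, like the −log10 p. The tool versions are not given in the sources used here. Replicate 3 of the vBM-MSC RNA-seq was not analysed here.

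Expected counts were rounded and fitted in R 4.3.3 by the two-sided quasi-likelihood test of edgeR 4.0.16 (TMM, 1 CPM or more in 2 or more libraries, 4 tissues as groups, Benjamini-Hochberg adjustment over all 12509 tested genes, threshold 0.05). The depth was 19569650 to 40517739 expected counts. The steps were tested on simulated data. Alternatives were DESeq2 1.42.0 (size factors or Wald test), limma 3.58.1 on log2(TPM + 1) and log2(TPM + 0.1), no filter, library sizes without the SIBLING genes, a replicate block, models of tissue pairs and leaving out each library. Peaks were used at a −log10 q of at least 7, with the curated RefSeq transcripts of GRCm38.p6, the assembly that mm10 names. Python 3.11.15, pandas 2.3.3 and matplotlib 3.10.9 were used.

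The genes named were the 5 members, up to 4 genes per list and direction with the largest change past the threshold, the cell type markers, the 10 genes most like Spp1 and Ibsp over the 11 libraries (1 of which is not reported here) and 5 by deviations from tissue means, and the neighbouring genes. The members, gene lists and tests were chosen with earlier results of these data known.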

Additional observations from a re-analysis of the deposited data

How the results depend on the processing

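In bone marrow against non-bone marrow MSCs, and in fBM-MSCs and vBM-MSCs against A-MSCs and P-MSCs, Spp1, Ibsp and Dmp1 kept their direction and their side of the threshold under every alternative run. Leaving out each library in the first of these gave 5.01 to 6.17 for Spp1, 12.45 to 15.61 for Ibsp and 8.71 to 11.76 for Dmp1 on the log2 scale, the fitted values of the last 2 depending on the prior count. Of 656 alternative expression values 20 changed and 636 did not.

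Most changes were in fBM-MSCs against vBM-MSCs. The DESeq2 Wald test gave Dmp1 3.60 on the log2 scale with an adjusted p of 0.138 and left 1 gene past the threshold in place of 2. A model of these tissues alone left 0, with Spp1 at 3.34 (adjusted p = 0.0979) and Dmp1 at 3.56 (0.161). Leaving out each library gave 2.60 to 4.93 for Spp1, 0.70 to 4.84 for Ibsp, 2.65 to 6.89 for Dmp1 and 1 to 3 genes past the threshold. In vBM-MSCs against A-MSCs and P-MSCs, Spp1 ranged from 2.09 to 4.42 and from 3.003 to 5.33, the ends set by the vBM-MSC libraries. In A-MSCs against P-MSCs, the model of these tissues alone put 1 gene past the threshold in place of 0, Spp1 at 0.91 (adjusted p = 0.000631), and Ibsp, with at most 3 counts a library, ranged from -1.75 to 3.13 and was reversed without A-MSC replicate 1, at -1.75. The integrin and Cd44 list had 5 genes higher in place of 3 under DESeq2 and without vBM-MSC replicate 2, ranging from 3 to 5 over the libraries, and the osteoblast factors had 1 lower in place of 0 without fBM-MSC replicate 3. The cause was not tested. Counts over all genes also moved: of the A-MSC against P-MSC calls 51.7% were higher in A-MSCs, and 30.1% with limma on log2(TPM + 1). With DESeq2 size factors in edgeR, which change the scaling only, the share was 52.5%. The limma run changed test, unit and scaling together, so these cannot be told apart.

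Replicate numbers gave no clear pairing of the libraries. Of 15 same-number pairs, 1 correlated above 0.1 in deviations from the tissue means, and 5 of 11 libraries correlated best with their own number. Libraries of the same mouse need not correlate in this measure, so the check cannot tell whether the numbers mark the mouse. With a replicate block, bone marrow against non-bone marrow gave 5.73 for Spp1 (adjusted p = 1.76e-05), 14.16 for Ibsp and 10.41 for Dmp1, and no call on these genes changed.

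For the peaks, all regions as deposited gave 44, 26, 27 and 33 in the window in fBM-, vBM-, A- and P-MSCs, with 15 in all lists and 18 in fBM-MSCs only. A −log10 q of at least 20 gave 9, 6, 5 and 7, with 2 in fBM-MSCs only, and 0 SIBLING promoters in fBM-MSCs and vBM-MSCs. Within 250 bases, vBM-MSCs had 0 SIBLING promoters, and all summits as deposited gave P-MSCs 1. Depth limits Mepe and Dspp, which had at most 14 counts in a library.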
